A study of Mus musculus with 8 samples.

Results

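Platelet-derived growth factor (PDGF) ligands and receptors, and the genes beside Pdgfra on mouse chromosome 5, were examined in a list of genomic regions obtained by capture bisulfite sequencing. The 10 genes were the ligand genes Pdgfa, Pdgfb, Pdgfc and Pdgfd, the receptor genes Pdgfra and Pdgfrb, and the neighbours Fip1l1, Chic2, Kit and Kdr. Regions were taken if they lay in a gene or within 5000 bp of it, together with the regions between genes from Fip1l1 to Kdr. This gave 230 of the 220894 regions in the list. Of these, 124 were at the 10 genes (104 in a gene and 20 in a flank only) and 114 lay between protein-coding genes of the chromosome 5 segment, of which 106 were outside the flanks. All 10 genes had a region, as did 87.9% of all protein-coding genes with the same flank. Coordinates are those of mm10, counted from 1. At the limit of the flank, the farthest regions taken lay 4727 bp from Pdgfrb (score 947) and 4904 bp from Pdgfa (score 666), and the nearest ones left out lay 6027 bp from Pdgfb (score 163) and 6219 bp from Pdgfa (score 322).

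The DNA came from 8 cultured mouse lines of mixed C57Bl/6, 129 and FVB/n background. The 4 brain tumour lines with mutant IDH and the 2 immortalized astrocyte lines with wild-type IDH came from mice whose genotype held N::TVA, lox-flanked Cdkn2a, lox-flanked Atrx and 1 further lox-flanked gene. The 2 brain tumour lines with wild-type IDH, labelled RAS gliomas, came from N::TVA mice with lox-flanked Cdkn2a alone, so the mice behind the mutant and wild-type tumour lines also differed at Atrx and at that further gene. TVA is the receptor through which avian retroviral vectors enter cells. The astrocyte lines are named PDGFA and IWT-PDGFA, and the second of them expresses exogenous wild-type IDH1; the labels do not say what PDGFA stands for in these names. The design compares lines by IDH status. The list analysed holds a position and 1 score for each region over the whole series, with no methylation level and no value for any single line, so mutant and wild-type lines could not be compared at these genes. Sequencing depth is unknown for each of them, and no value has a replicate error. The score is the authors' own value. What it counts is not stated in the labels or the file, and it was used only to describe and rank regions within the list, where scores ran upwards from 100 with a median of 462.

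PDGF ligands are secreted dimers that bring receptor chains together at the cell surface. PDGF-A and PDGF-C act mainly through the alpha receptor and PDGF-D through the beta receptor, and PDGF-B binds both. In the brain, Pdgfra marks oligodendrocyte progenitor cells, and PDGF-B released by endothelial cells recruits pericytes that carry Pdgfrb. Human PDGFRA, KIT and KDR lie side by side and can be amplified together in glioma. In human glioma with mutant IDH, methylation of a binding site of the insulator protein CTCF has been linked to contact of PDGFRA with an enhancer near FIP1L1, which is why the sequence between these genes is described here.

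Transcription starts were covered unevenly, and the sequences below show where a region lay before the start. RefSeq starts (assembly GRCm38.p6, which is mm10) were matched for 8 of the 10 genes, 10 starts in all. No start was matched for Pdgfb or Pdgfrb, for which both ends of the gene record were used. Each sequence is the 250 bases before a start, 5′ to 3′ on the strand of the gene. Capitals mark bases inside a region of the list, and covered is used below in that sense only. They were chosen to set 4 starts that lay inside a region against 3 that did not.
Pdgfra (chr5:75152001-75152250, plus strand): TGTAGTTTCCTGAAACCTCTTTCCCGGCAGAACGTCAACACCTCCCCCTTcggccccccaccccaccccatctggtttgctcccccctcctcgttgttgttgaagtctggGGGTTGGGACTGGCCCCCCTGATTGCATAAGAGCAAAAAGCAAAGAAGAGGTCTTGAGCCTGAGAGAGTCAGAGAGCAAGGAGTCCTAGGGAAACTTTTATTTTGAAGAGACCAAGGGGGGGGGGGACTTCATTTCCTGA
Pdgfc (chr3:81036166-81036415, plus strand): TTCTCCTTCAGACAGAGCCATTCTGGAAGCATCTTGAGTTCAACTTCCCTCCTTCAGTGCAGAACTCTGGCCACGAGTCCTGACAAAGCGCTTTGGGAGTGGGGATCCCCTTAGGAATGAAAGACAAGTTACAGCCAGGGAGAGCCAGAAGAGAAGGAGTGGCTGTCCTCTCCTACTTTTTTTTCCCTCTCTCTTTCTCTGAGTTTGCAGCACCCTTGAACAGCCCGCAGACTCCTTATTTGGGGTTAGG
Pdgfd (chr9:6168236-6168485, plus strand): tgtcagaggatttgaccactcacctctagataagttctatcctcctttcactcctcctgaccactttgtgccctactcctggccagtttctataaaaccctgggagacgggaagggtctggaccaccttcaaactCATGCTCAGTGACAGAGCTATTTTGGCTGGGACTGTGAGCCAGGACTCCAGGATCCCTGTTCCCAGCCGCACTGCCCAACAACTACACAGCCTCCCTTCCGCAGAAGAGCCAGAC
Fip1l1 (chr5:74535241-74535490, plus strand): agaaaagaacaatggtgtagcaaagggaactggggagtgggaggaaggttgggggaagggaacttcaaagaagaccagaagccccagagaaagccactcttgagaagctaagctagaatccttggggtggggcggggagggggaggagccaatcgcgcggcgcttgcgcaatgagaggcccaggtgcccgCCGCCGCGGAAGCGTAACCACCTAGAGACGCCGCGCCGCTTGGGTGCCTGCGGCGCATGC
Chic2 (chr5:75044642-75044891, minus strand): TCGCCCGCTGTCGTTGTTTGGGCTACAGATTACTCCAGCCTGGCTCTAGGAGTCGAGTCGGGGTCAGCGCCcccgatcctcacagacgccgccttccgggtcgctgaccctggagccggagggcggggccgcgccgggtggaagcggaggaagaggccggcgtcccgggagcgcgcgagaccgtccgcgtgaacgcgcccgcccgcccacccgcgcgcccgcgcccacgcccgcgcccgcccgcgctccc
Kit (chr5:75574737-75574986, plus strand): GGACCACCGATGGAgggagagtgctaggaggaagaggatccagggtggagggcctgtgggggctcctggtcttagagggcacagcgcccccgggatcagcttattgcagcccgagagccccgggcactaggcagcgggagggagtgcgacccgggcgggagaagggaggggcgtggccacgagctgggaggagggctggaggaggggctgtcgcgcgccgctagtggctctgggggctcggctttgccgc
Pdgfa (chr5:138994945-138995194, minus strand): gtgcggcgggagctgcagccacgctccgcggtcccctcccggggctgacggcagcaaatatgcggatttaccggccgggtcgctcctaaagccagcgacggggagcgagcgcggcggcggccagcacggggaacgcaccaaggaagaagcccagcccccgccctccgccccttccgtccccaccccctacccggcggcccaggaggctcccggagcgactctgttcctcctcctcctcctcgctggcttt

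All 250 bases before the Pdgfc start lay in a region, 190 of those before Pdgfra (in 2 regions), 115 before Pdgfd and 60 before Fip1l1. Before Chic2 the region ended 180 bp short of the start and held 71 of the bases. Before Kit only 14 bases were covered, and before this Pdgfa start none. Among these member starts, the uncovered ones were rich in CpG, the dinucleotide whose cytosine carries most DNA methylation in mammals. The 300-base window from 250 bases before to 50 after the start held 48 CpG sites at Chic2, 37 and 24 at the 2 Pdgfa starts, 20 and 21 at the 2 Kit starts and 19 at Kdr, and none of these starts lay inside a region. The windows of Pdgfra, Pdgfc and Pdgfd held 5, 8 and 8 CpG sites, and these starts lay inside one. Fip1l1, with 24 CpG sites, was the exception. Of the 214 CpG sites counted over the 10 member windows, some of which overlap, 39 (18.2%) lay inside a region, compared with 43.2% of CpG sites over all windows of protein-coding genes.

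Over the 21263 starts of protein-coding genes in the table, 37.6% lay inside a region. The share was 15.7% (95% Wilson interval 14.8 to 16.7) with 0 to 4 CpG sites, 43.9% (42.2 to 45.6) with 5 to 9, 67.3% (65.9 to 68.7) with 10 to 19, 48.6% (47.1 to 50.1) with 20 to 29 and 17.1% (15.9 to 18.5) with 30 or more. It was thus highest at intermediate CpG numbers and low at both extremes. Over all these starts the median CpG number was 15 inside a region and 8 outside, a different order from that among the member starts. These intervals cover counting error only, and starts of 1 gene share sequence. Chic2 and the CpG-rich Pdgfa start fell in the class with few covered starts, whereas Kdr fell in the class with the highest share and was not covered. Both Kit starts, the other Pdgfa start and Fip1l1 fell in the class with 48.6%. Pdgfra, Pdgfc and Pdgfd fell in the class with 43.9%.

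**Figure D1:**
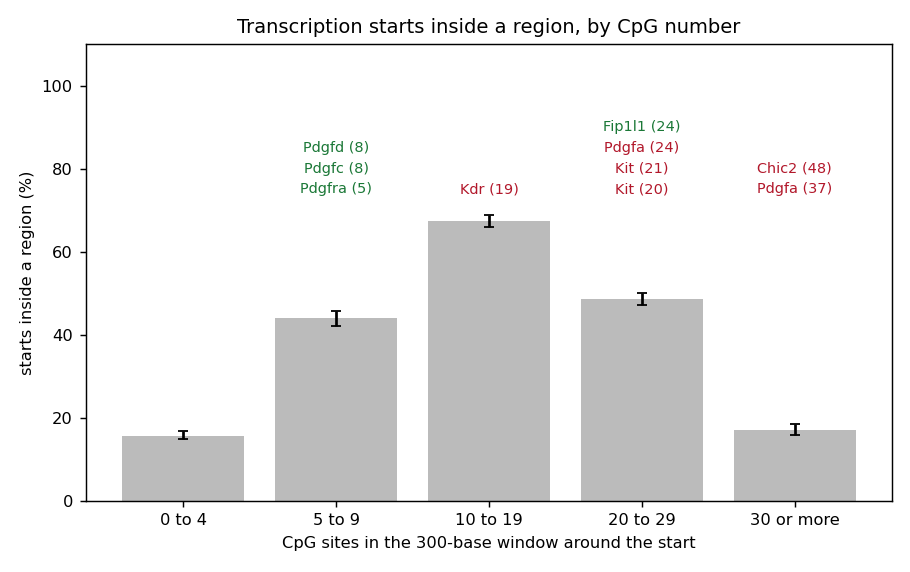
Share of transcription starts of protein-coding genes that lie inside a region (bars, with 95% Wilson intervals), by the number of CpG sites in the 300-base window around the start. Names above the bars are the 10 member starts with their CpG number, in green where the start lies inside a region (4 starts) and in red where it does not (6 starts).

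Counted with 1000 bp to each side of a start, 9 of the 10 genes had a region, against 74.7% of all protein-coding genes. Pdgfb was the gene without one. No start was matched for Pdgfb or Pdgfrb, so only the ends of their gene records were counted, and starts inside the records were not placed. In 4 of the 10 genes a start lay inside a region, close to the 40.9% of all protein-coding genes, and 4 genes (Pdgfra, Pdgfc, Fip1l1 and Chic2) had a region of the upper 25% by score within 1000 bp of a start, against 37.2%. The motif GGGCGG, on either strand, was present in 7 of the 10 windows (both of Pdgfa, both of Kit, and those of Kdr, Chic2 and Fip1l1) and in 46.2% of all windows. TATAAA was present in 1 member window, that of Pdgfd, and in 12.6% of all. CCCTC was present in 9 member windows, all except that of Pdgfd, and in 69.6% of all. The windows of the Kit starts overlap almost fully, so their matches are not separate. Matches of GGGCGG and CCCTC can share bases. A match describes the letters only.

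Among the ligand genes, the short Pdgfa and Pdgfb were densely covered by low-scoring regions, and the long Pdgfc and Pdgfd were sparsely covered by higher-scoring ones. With the flanks included, the density was 3.45 regions per 10 kb at Pdgfa and 3.87 at Pdgfb, compared with 0.693 at Pdgfc and 0.452 at Pdgfd. Set against protein-coding genes of 0.8 to 1.25 times the same length, Pdgfa was denser than 89.3% of 2728 genes and Pdgfb than 95.3% of 2642, whereas Pdgfc was denser than 34.0% of 701 and Pdgfd than 33.7% of 309. The contrast between the pairs was therefore present after length had been matched. The median density of the comparable genes was also higher for the short pair (1.76 and 1.70) than for the long pair (0.948 and 0.628).

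Because wider regions score higher (Spearman rho = 0.74 over the 230 regions and 0.80 over the whole list, as a description), each score was also ranked among all regions whose width differed by at most 50 bp, as the percentage of them that scored lower, called the width-matched percentile below. Over the 230 regions its median was 49.1. At least 75 was reached by 49 of them (21.3%, against 20.9% of the whole list), and 54 were under 25 (23.5%, against 23.1%). The 230 regions as a whole were thus close to the list, while genes, stretches between genes and single regions within them differed.

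Pdgfa, which encodes the A chain, lies on chromosome 5 at 138976014 to 139000792 (minus strand), far from Pdgfra. Its 12 regions scored from 137 to 887 with a median of 335.5. The highest, 887, lay in the flank at 138974161 to 138975660. The regions nearest the starts scored 173 at 138994531 to 138994740, between the 2 starts, and 413 at 138993321 to 138993780. Both scores were under the list median of 462, with width-matched percentiles of 35.6 and 30.9. Both starts lay inside the gene record, the outer one 5848 bp from its end. An outermost start more than 1000 bp from the record's end was found for 9.95% of protein-coding genes with a start. A region 1170 bp wide at 138991241, after both starts, scored 328, and one 760 bp wide at 138996131, which ended 1187 bp before the outer start, scored 247. Their width-matched percentiles were 1.39 and 1.13. A stretch of 11640 bp, 47.0% of the gene, held no region.

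Pdgfb, the gene of the B chain (chromosome 15, 79995865 to 80024614), had 15 regions, all inside the gene record between 80001571 and 80017340 and none in the flanks. The scores ran from 123 to 637 with a median of 285, and none of the 15 reached the upper 25% by score. Of the 15, 8 had a width-matched percentile under 25, and 1 had one of at least 75, against 23.1% and 20.9% of the list. The median percentile, 18.8, was above that of 3.84% of 1666 genes with a similar number of regions. Among the 10 genes Pdgfb therefore had the lowest scores for their width, and Pdgfa, with a median percentile of 28.2 (above 15.8% of 3057 genes), the next lowest. The 7274 bp at the higher-numbered end of the Pdgfb record held no region. Transcripts that start inside the record were not placed, so the lack of a region at its ends does not describe them.

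Pdgfc and Pdgfd encode ligands that carry an additional CUB domain and are released by proteolysis. Pdgfc (chromosome 3, 81036416 to 81214040) had 13 regions with a median score of 646 and a median width-matched percentile of 65.9, above 86.8% of 2506 genes with as many regions, give or take 2. Its widest and highest region, 2180 bp with a score of 1578, ran from 81034251 to 81036430 and covered the start. The region after it, 755 bp into the gene and 570 bp wide, scored 252, a percentile of 3.18, so high and low values stood side by side. Beyond a group of 4 regions between 81101221 and 81108020, the next 63020 bp, 35.5% of the gene, held none.

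Pdgfd (chromosome 9, 6168363 to 6534284) is the longest of the 10 genes, and its 17 regions all lay inside it. The region over the start scored 473 for a width of 650 bp, a percentile of 21.2. The 16 others had a median percentile of 65.7, with none under 25, against 23.1% of the whole list. The region at 6434981 to 6435740 scored 2557, the highest of the 230, and 1 at 6224551 to 6225020 scored 1515, both in the upper part of their width class (percentiles 98.7 and 98.5). They lay 266495 and 56065 bp from the start. The longest stretch without a region measured 80670 bp, longer than 98.0% of the gaps between neighbouring regions in the list, whose median was 3550 bp.

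**Figure D2:**
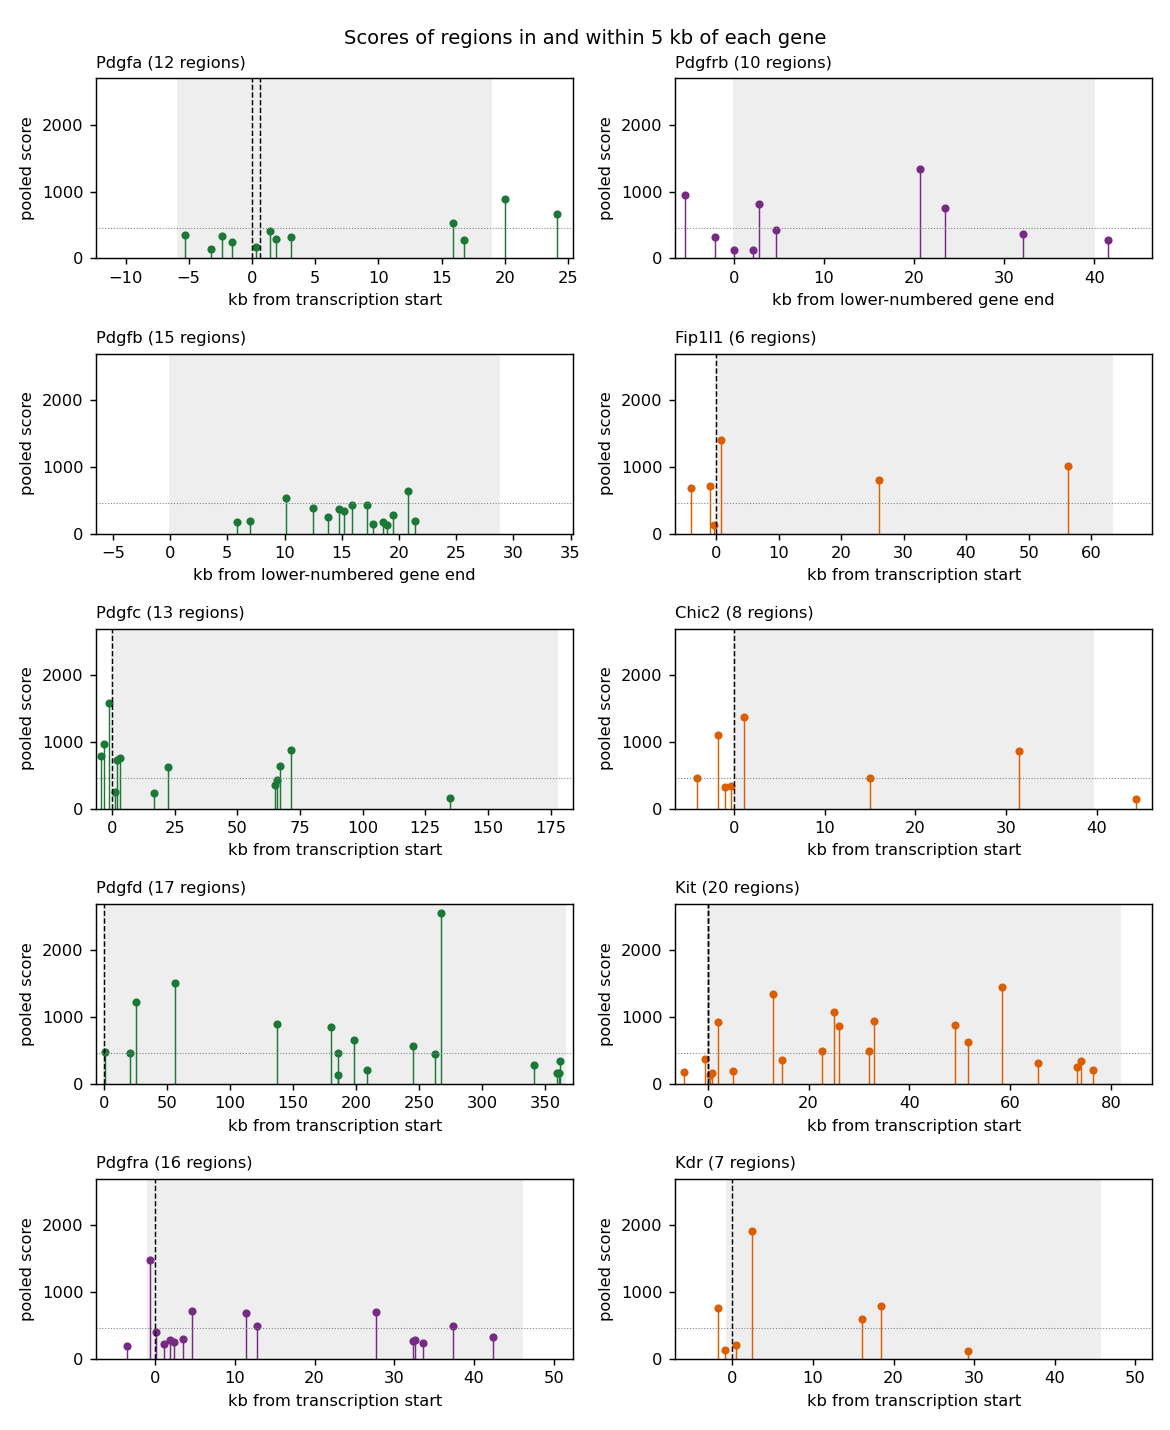
Scores (vertical axis) of the regions in and within 5 kb of each gene, by distance in kb from the transcription start in the direction of transcription, or from the lower-numbered gene end for Pdgfb and Pdgfrb. Grey marks the gene, dashed lines the starts and the dotted line the list median of 462; ligands are green, receptors purple and neighbours orange, and the highest point is the Pdgfd region of 2557.

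**Figure D3:**
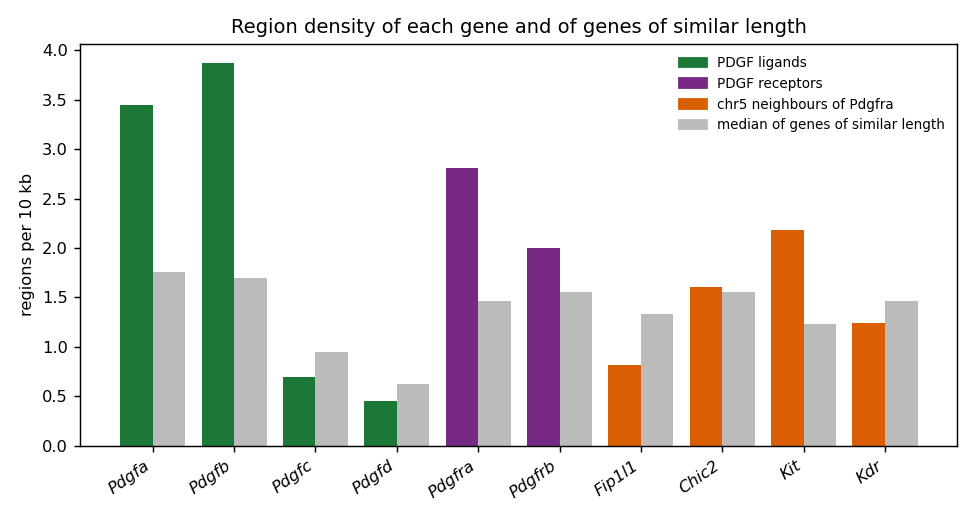
Regions per 10 kb of each gene with its flanks (coloured bars) and the median of protein-coding genes of similar length (grey bars). Pdgfb (3.87) and Pdgfa (3.45) are the densest and Pdgfd (0.452) the sparsest.

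The receptor gene Pdgfra (chromosome 5, 75151322 to 75198206, plus strand) combined 1 high-scoring region before its matched start with a run of low-scoring ones after it. That start lay 929 bp inside the gene record, and the high-scoring region lay across the record's own end. The region at 75151271 to 75152050 ended 201 bp before the start and scored 1478, a width-matched percentile of 92.8. The region over the start, 75152111 to 75152590, scored 406. The next 4 scored 226, 281, 257 and 296, and the one after them, at 75156481 to 75157330, scored 717. These 7 regions spanned 6060 bp from the beginning of the first to the end of the last. A percentile under 25 was found for 3 of them, against 23.1% of the whole list. The 8 regions farther into the gene were spread over 31630 bp, with scores from 232 to 700 and a median percentile of 58.8, compared with 27.4 for the 7 near the start. The region in the upstream flank, 480 bp wide, scored 185, a percentile of 1.40.

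Over all 16 regions of Pdgfra the median score was 309 and the median percentile 38.3, above 26.8% of 1363 genes with a similar number of regions. The median for width was thus low to intermediate, but single regions were spread widely. Of the 16, 4 had a percentile of at least 75 and 6 had one under 25, against 20.9% and 23.1% of the whole list. By score alone, 1 of 16 was in the upper 25%. Its density, 2.81 regions per 10 kb, exceeded that of 91.1% of 2068 genes of similar length. A stretch of 14450 bp in the gene body held no region.

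Pdgfrb, the receptor of pericytes and vascular smooth muscle (chromosome 18, 61045127 to 61085067), had 10 regions at a density of 2.0 per 10 kb, above 67.1% of 2196 genes of similar length. Its scores ran from 122 to 1346 with a median of 391.5 and a median percentile of 39.9, close to the 38.3 of Pdgfra. Unlike at Pdgfra, the highest score was found deep in the gene body, with 1346 at 61064921 to 61066650. The only region within 1000 bp of either end was 140 bp wide and scored 122. The 2 regions in the lower-numbered flank also lie in the predicted gene Gm52351.

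Near starts, the members followed the list. In the 8 genes with a matched start, the 19 regions within 1000 bp of a start had a median percentile of 28.3 and the 80 others 57.7. Over the whole list the values were 38.9 for 24277 regions near a start and 52.3 for 196617 others. Regions close to starts thus scored lower for their width in both. Of the 19 member regions, 5 had a percentile of at least 75 and 7 had one under 25. Over the list these numbers were 3948 and 8497 of the 24277 regions near a start.

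**Figure D4:**
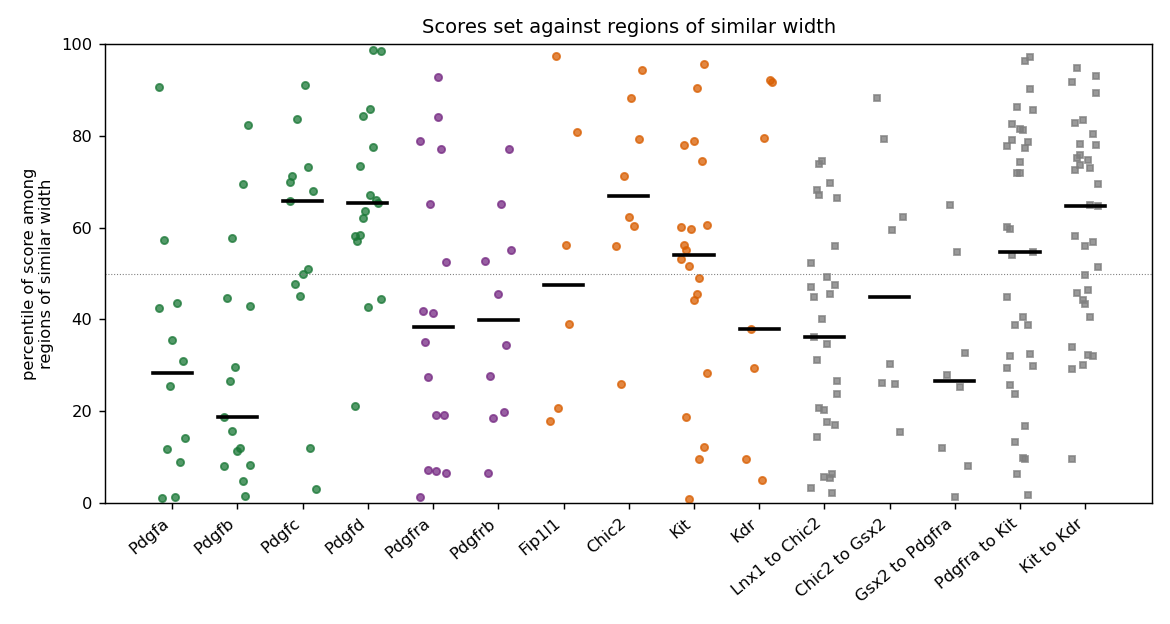
Width-matched percentile of each region (points) and the median (black bars) for the 10 genes (circles) and the 5 stretches between genes of the chromosome 5 segment (grey squares). The Pdgfb median is 18.8, those of Pdgfc, Pdgfd and Chic2 lie between 65.3 and 66.9, and no region from Lnx1 to Chic2 reaches 75.

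The neighbours of Pdgfra differed from each other. Fip1l1, a factor of mRNA cleavage and polyadenylation and a fusion partner of PDGFRA in human leukaemia (chromosome 5, 74535438 to 74598790), had 6 regions, a density of 0.818 per 10 kb that exceeded 23.9% of 1701 genes of similar length. Its start lay in a region 1850 bp wide with a score of 1406, and a region inside the gene at 74591521 to 74591900 scored 1013, a percentile of 97.4. The 29660 bp between this region and the one before it held none. The flank region with a score of 685 also lies in Scfd2.

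Chic2, a membrane-associated protein gene that is lost in the human deletion that joins FIP1L1 to PDGFRA (chromosome 5, 75005004 to 75044641), had 8 regions with a median percentile of 66.9, above 87.0% of 6557 genes. High scores stood on each side of its uncovered start: 1377 at 75043251 to 75043810, 831 bp into the gene, and 1111 at 75045981 to 75046760, 1340 bp before it. The 2 regions between the start and the latter scored 343 and 320.

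Kit, the stem cell factor receptor (chromosome 5, 75574987 to 75656722), had the most regions of the 10 genes, 20, at 2.18 per 10 kb, above 85.0% of 1467 genes of similar length. The regions on either side of its starts were low, with 367 ending 237 bp before and 126 beginning 380 bp after the nearest start, percentiles of 9.62 and 0.859. The body held the high scores, 1446 at 75633031 to 75633900 and 1350 at 75587591 to 75588110. Kit's median percentile was 54.1.

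Kdr, the main endothelial receptor of vascular endothelial growth factor (chromosome 5, 75932827 to 75979072, minus strand), had 7 regions and a density of 1.24 per 10 kb, above 38.6% of 2071 genes of similar length. The region at 75975131 to 75976920, 1535 bp into the gene, scored 1911, the second highest of the 230. The 2 regions nearest its start scored 200 and 131. The last 16324 bp of the gene held none. Among the 3 receptor genes in tandem, density therefore fell in the order Pdgfra, Kit, Kdr; their medians of scores, 309, 426.5 and 592, rose in that order, and their median percentiles, 38.3, 54.1 and 38.0, did not.

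From Fip1l1 to Kdr, 5 stretches lay between protein-coding genes, with Lnx1 (a ubiquitin ligase gene that overlaps the end of Fip1l1) and Gsx2 (a forebrain homeobox gene) as the other protein-coding genes of the segment. Lnx1 and Gsx2 held 13 regions that were not taken. The 5 stretches held 114 regions in 1059231 bp, or 10.8 per 100 kb, against 6.13 over all 19697 stretches between protein-coding genes. Per 100 kb, 9.6 regions lay from Lnx1 to Chic2, 25.8 from Chic2 to Gsx2, 10.9 from Gsx2 to Pdgfra, 9.29 from Pdgfra to Kit and 12.3 from Kit to Kdr. The densities exceeded those of 81.6%, 86.8%, 57.6%, 85.6% and 89.2% of stretches of similar length, in the same order.

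Taken as a whole, the side of Pdgfra that faces Fip1l1 scored lower for its width than the side that faces Kit and Kdr. The stretches within each side were not alike. From Lnx1 to Pdgfra, 45 regions had scores of 116 to 1173 with a median of 478 and a median percentile of 32.6. From Pdgfra to Kdr, 69 regions had scores of 130 to 1715 with a median of 585 and a median percentile of 59.6. A percentile of at least 75 was reached by 2 of the 45 (4.44%) and 23 of the 69 (33.3%), against 20.9% of the whole list. Under 25 were 15 of the 45 (33.3%) and 8 of the 69 (11.6%), against 23.1% of the list. Neighbouring regions are not independent and the list pools all lines, so no test was made of this difference.

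**Figure D5:**
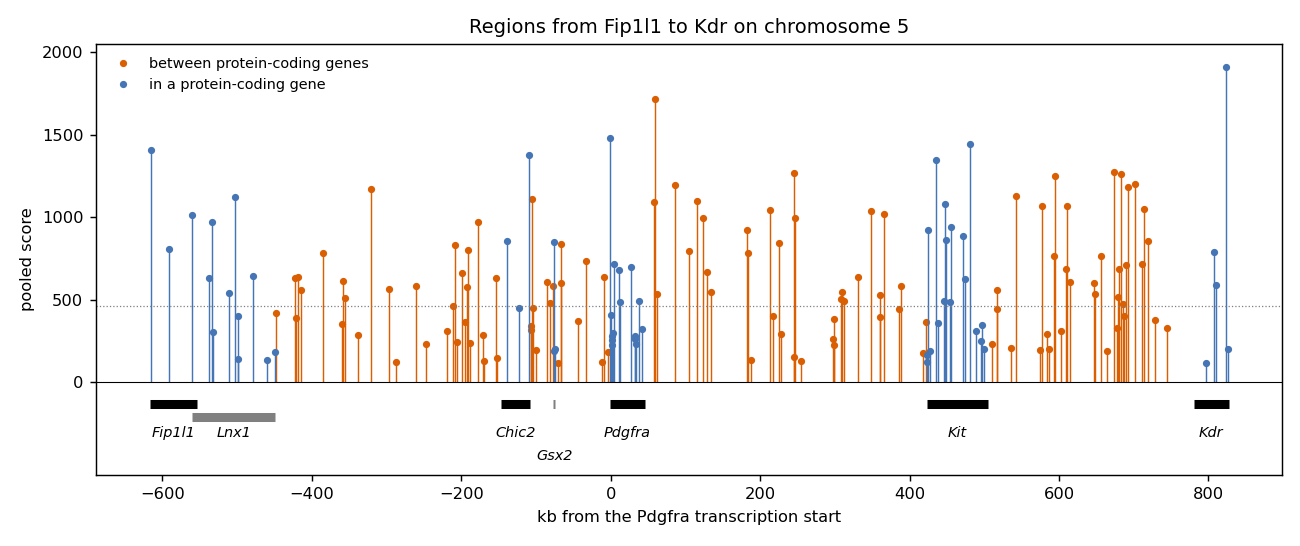
Scores of the regions from Fip1l1 to Kdr by distance in kb from the Pdgfra start, with regions between protein-coding genes in orange, regions in genes in blue, the list median of 462 dotted, member genes as black bars and Lnx1 and Gsx2 as grey bars. The highest orange point, 1715, lies 58.8 kb beyond the Pdgfra start.

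Between Lnx1 and Chic2, the stretch that separates Fip1l1 from the side of Pdgfra, 29 regions left no gap that was long for a stretch of this length. The longest stretch without one, 27310 bp, was longer than in 4.96% of 484 stretches of similar length. Their median longest gap was 75610 bp. Between neighbouring regions of the whole list the median gap was 3550 bp, and this stretch was denser in regions than 81.6% of the 484. The median percentile of the 29, 36.1, exceeded that of 7.45% of the 416 such stretches with at least 3 regions. Of the 29, 0 had a percentile of at least 75 and 11 had one under 25, against 20.9% and 23.1% of the whole list. The highest score, 1173, lay at 74830241 to 74831590, 321 kb before the Pdgfra start, and the next, 971, at 74974131 to 74975030. A group of 7 regions lay in or across the non-coding genes Gm52779, Gm6116 and Gm52778, with scores from 237 to 832, and 2 more regions lay in Gm52777 and 1 in Gm15984. No genome sequence was used, so CTCF sites in these regions were not analysed here.

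From Chic2 to Gsx2 there were 8 regions with scores of 193 to 1111. Their median percentile, 44.9, exceeded that of 34.4% of 1180 stretches of similar length with at least 3 regions. From Gsx2 to Pdgfra there were 8 with scores of 116 to 837. A percentile of 75 was reached by 0 of them, against 20.9% of the whole list. The last stretch includes the non-coding gene Gm19583, whose end lies close to Pdgfra and which held 3 regions with scores of 737, 126 and 636. The median percentile from Gsx2 to Pdgfra, 26.6, exceeded that of 3.76% of 1065 stretches of similar length with at least 3 regions. The sequence directly before Pdgfra was thus covered at an ordinary density by regions with low scores for their width, up to the region of 1478 at the gene's own edge.

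Beyond Pdgfra, a group of high and a group of low scores lay in the same stretch. From Pdgfra to Kit, 35 regions had a median score of 550. Their median percentile, 54.7, exceeded that of 48.9% of 360 stretches of similar length with at least 3 regions. Of the 35, 12 reached a percentile of at least 75 and 7 were under 25, against 20.9% and 23.1% of the whole list. The first 8, from 75209661 to 75281950, scored between 536 and 1715, and 7 of them had a percentile of at least 75, whereas 6 regions from 75449621 to 75464400 scored between 228 and 550, with a highest percentile of 29.8. Both groups were chosen after their values were seen. The region of 1715, the third highest of the 230, lay at 75210661 to 75211350, and a region of 1092 lay beside it. The longest stretch without a region was 47500 bp.

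From Kit to Kdr, 34 regions had a median score of 607 and a median percentile of 64.8, above 79.8% of 450 stretches of similar length. Of the 34, 11 reached a percentile of at least 75 and 1 was under 25, against 20.9% and 23.1% of the whole list. The highest were 1272 at 75825511 to 75827250 and 1265 at 75834031 to 75835900. The 36106 bp next to Kdr held none.

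The other genes on the lists had a region near a start in nearly every case. Of 25 genes of signal transduction below the receptors, such as adaptors, kinases and STAT factors, 25 had a region within 1000 bp of a start, against 74.7% of all protein-coding genes, with the highest scores at the adaptor gene Crk (1723) and at Stat3 (1656). All 11 genes of ligand activation and co-receptors had one, led by the proprotein convertase gene Pcsk7 (1308) and the co-receptor gene Nrp1 (1283). Plat and Plau, the genes of the plasminogen activators that release PDGF-C and PDGF-D, scored 720 and 278. Of 13 sister receptors and their ligands, 12 had one, with Flt3 (1118) and Flt4 (1045) highest and Csf1r, a receptor of the same class as Kit, without. Of 9 insulator and cohesin genes, 8 had one, with Rad21 (1518) and Wapl (1130) highest, Ctcf at 476, and Nipbl without. Of 21 other protein-coding genes from 1 Mb below Fip1l1 to 1 Mb above Kdr, 20 had one, led by Srp72 (1648) and Ppat (1376, a region shared with Paics), and Cracd had none.

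The lists were less alike in scores for width. The median over genes of the median width-matched percentile was 51.8 for signal transduction, 37.8 for ligand activation and co-receptors, 31.1 for sister receptors and ligands, 49.4 for insulator and cohesin genes and 47.7 for the chromosome 5 genes, beside 48.6 over all protein-coding genes. Ligand genes of PDGF had a value of 46.8, which lies between the low Pdgfa and Pdgfb and the higher Pdgfc and Pdgfd. A start lay inside a region in 8 of 25 signal transduction genes, 4 of 11 ligand activation genes, 6 of 13 sister genes, 1 of 9 insulator and cohesin genes and 10 of 21 chromosome 5 genes, against 40.9% of all protein-coding genes. Which sequences the kit was built to capture was not analysed here, so these shares describe capture and sequencing together.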

How the data were processed

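Genomic DNA of 8 lines was captured with a mouse methylation kit (Agilent SureSelect XT) and sequenced after bisulfite treatment, per the labels' protocols. The submitters' processing notes name Novoalign 3.7.1, Picard and the build mm10. How the regions were called and filtered is not stated in the labels or the file. The deposited file is 1 region list in narrowPeak style, per the file headers, and each score was deposited by the authors as 1 whole number per region for the whole series. Depth per line is unknown, so no test was made. The name of the further lox-flanked gene in the mouse genotype is not reported here.

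Genes and starts came from RefSeq tables on GRCm38.p6 (21887 protein-coding genes, 17492 with a start). A region counted if it shared at least 1 bp with a gene, flank or window. Ranks among genes used genes with at least 3 regions and with the member's number of regions, give or take 2. Length-matched genes and stretches had 0.8 to 1.25 times the length. The members are the 10 listed genes, described in full with the region at the start, the highest region and the longest gap, and 5 lists of related genes are given by counts, their 2 highest and those without a region. Members and lists were chosen with earlier results of these data known. Overlap counts and percentiles were tested on simulated data. Python 3.11.15, pandas 2.3.3 and scipy 1.17.1 were used. Alternatives changed the flank, the start window, the overlap rule, the score minimum and the width tolerance. Coordinates count from 1.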

Additional observations from a re-analysis of the deposited data

How the results depend on the processing

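The number of regions taken, 230, ran from 197 with scores of at least 200 to 240 with flanks of 10000 bp over 5 alternatives. Genes with a region near the start, or near a record end for Pdgfb and Pdgfrb, numbered 9, and 8 or 9 under 3 alternatives. The count was 4 with only the upper 25% of regions by score, which keeps fewer regions, and 4 when the start itself had to lie inside a region, an alternative chosen after seeing the data. Regions between genes from Fip1l1 to Pdgfra numbered 45, and 30 to 46 over 4 alternatives, lowest outside all annotated genes. The median width-matched percentile of Pdgfra, 38.3, ran from 34.8 with widths within 20 bp to 42.9 with widths within 100 bp. No paired analysis was possible because the list has no value per line. Without values per line, leaving out a line was not possible either, and depth limits no single value in a way that could be measured here.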
